A study of Homo sapiens with 2 samples.

Results

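The peaks described here are the places where PROX1 was called on chromatin at 5 genes that carry out Wnt signalling in the gut: LGR5, ASCL2, LEF1, TCF7L2 and EPHB2. A peak was a member when its centre lay in the span of one of these genes, meaning the gene with about 50 kb on either side, on the hg18 build. By this positional rule 24 of the 23450 peaks of the list were members (0.102%), with 3 at LGR5, 3 at ASCL2, 2 at LEF1, 12 at TCF7L2 and 4 at EPHB2. The peaks come from 1 chromatin immunoprecipitation and sequencing (ChIP-seq) library, pooled from 3 immunoprecipitations with a goat antibody against human PROX1, set against 1 library of input DNA. Both libraries are from SW480R cells, sub-populated from the colorectal adenocarcinoma line SW480, so the only contrast is ChIP against input. Each peak carries the authors' count of ChIP reads in it, called tags, and a fold over input. With 1 library of each kind there is no replicate spread and no test between conditions. Intervals are exact 95% intervals of counts of peaks, which take neighbouring peaks as independent and cover counting error only.

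In Wnt signalling, the ligand keeps β-catenin from being degraded, and β-catenin then enters the nucleus and acts through the TCF/LEF proteins on DNA. In the intestine this pathway maintains the stem cells at the crypt base, and most colorectal tumours have it switched on. SW480 carries truncated APC, a part of the complex that degrades β-catenin. PROX1 is a homeobox transcription factor that is itself known as a target of β-catenin and TCF in colorectal tumours. LEF1 and TCF7L2 are the DNA-binding partners of β-catenin, LGR5 is a receptor for R-spondins and marks crypt base stem cells, ASCL2 is a basic helix-loop-helix factor needed by these cells, and EPHB2 is a receptor tyrosine kinase that binds ephrin-B and helps place cells along the crypt.

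The RefSeq promoter windows, 250 bases before to 50 bases after a gene start on GRCh38.p14, were at hand for 3 of the 5 genes (TCF7L2, EPHB2 and LEF1). They are shown because TCF7L2 and EPHB2 each had a PROX1 peak within 1.5 kb of the approximate gene start, while the nearest peak to that of LEF1 was 49.7 kb away. Each is written 5′ to 3′, and capitals mark the core of the TCF/LEF motif, CTTTG on either strand (CAAAG on the other).
TCF7L2, first start, chr10:112949997-112950296, plus strand: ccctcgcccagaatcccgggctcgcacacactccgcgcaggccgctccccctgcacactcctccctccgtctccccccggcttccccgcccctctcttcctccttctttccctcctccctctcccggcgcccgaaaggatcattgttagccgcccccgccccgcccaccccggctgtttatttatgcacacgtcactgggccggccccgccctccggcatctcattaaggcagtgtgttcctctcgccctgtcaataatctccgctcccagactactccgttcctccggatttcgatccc
EPHB2, first start, chr1:22710588-22710887, plus strand: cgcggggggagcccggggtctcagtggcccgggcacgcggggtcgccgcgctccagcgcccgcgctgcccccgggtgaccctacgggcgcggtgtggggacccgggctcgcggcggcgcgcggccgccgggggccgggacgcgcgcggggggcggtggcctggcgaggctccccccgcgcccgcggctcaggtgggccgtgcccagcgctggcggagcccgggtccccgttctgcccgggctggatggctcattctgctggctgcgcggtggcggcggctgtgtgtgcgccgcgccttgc
LEF1, chr4:108166252-108166551, minus strand: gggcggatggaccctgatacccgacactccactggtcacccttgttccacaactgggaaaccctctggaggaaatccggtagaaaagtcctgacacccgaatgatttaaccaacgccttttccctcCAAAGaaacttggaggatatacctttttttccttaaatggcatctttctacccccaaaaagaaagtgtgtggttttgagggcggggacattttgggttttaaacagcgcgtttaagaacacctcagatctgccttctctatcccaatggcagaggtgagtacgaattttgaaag
The LEF1 window held 1 CTTTG core, and the printed windows of TCF7L2 and EPHB2 held 0. RefSeq lists 2 further start windows for TCF7L2, inside the gene at chr10:113126383-113126682 and chr10:113129021-113129320 of the same build, and these held 3 and 1 cores. EPHB2 has a second window, shifted by 1 base, with 0. Of 35116 RefSeq promoter windows of 300 bases, 47.5% held the core. The longer form CTTTGAT, which contains the core, was in none of these 6 windows and in 2.62% of all windows. The E-box CAGCTG, a letter string of the kind bound by factors such as ASCL2 and the same on both strands, was in none of the 6 and in 17.9% of all. The GC content was 65.7% in the first TCF7L2 window and 42.7% and 48.7% in its other two, 83.0% at EPHB2 and 47.0% at LEF1. These windows are on another build than the peaks, so whether a peak lies within one could not be read. Whether each window, that of LEF1 among them, holds the approximate start used for distances could not be read either. The letters are a description only. Sequences under the peaks themselves were not used here.

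Taken over all 5 spans, PROX1 peaks were denser than elsewhere, and TCF7L2 alone held 12 of the 24. The spans covered 1189 kb and held 24 peaks, which is 2.02 per 100 kb (1.29 to 3.0), against 0.760 per 100 kb in the rest of the nuclear genome. The ratio was 2.66 (1.70 to 3.95), and 2.47 (1.58 to 3.67) with assembly gaps left out of the length. This background counts all DNA and not gene loci, whose own density was not measured here. The interval takes peaks as independent, and the 5 spans together were not set against windows. Without TCF7L2 the other 4 spans held 12 peaks in 873 kb, or 1.37 per 100 kb, and the ratio was 1.81 (0.935 to 3.16), an interval that includes 1. Leaving out any of the other genes in turn gave ratios from 2.55 to 2.99, with intervals above 1.

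**Figure D1:**
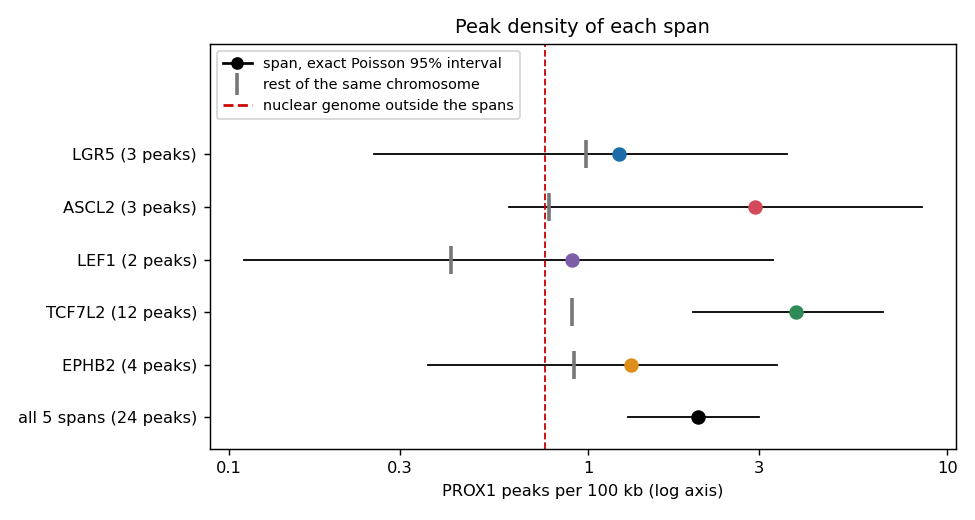
PROX1 peaks per 100 kb in each span and in all 5 together (points, with exact Poisson 95% intervals as lines), on a log axis. Grey ticks mark the rest of the same chromosome and the dashed line the nuclear genome outside the spans (0.760). The intervals of TCF7L2 and of all 5 spans lie above the dashed line, and those of the other 4 genes cross it.

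In the order of density, TCF7L2 came first with 3.80 peaks per 100 kb (0.0380 per kb, 1.96 to 6.63 per 100 kb), followed by ASCL2 with 2.91 (0.601 to 8.51), EPHB2 with 1.32 (0.359 to 3.37), LGR5 with 1.22 (0.253 to 3.58) and LEF1 with 0.905 (0.110 to 3.27). Neighbours in this order did not differ beyond counting error. The ratio was 1.30 for TCF7L2 over ASCL2 (0.352 to 7.20) and 2.21 for ASCL2 over EPHB2 (0.324 to 13.1). It was 1.07 for EPHB2 over LGR5 (0.182 to 7.34) and 1.35 for LGR5 over LEF1 (0.155 to 16.2). Of all 10 pairs, the ratio with the highest lower bound was that of TCF7L2 over LEF1, 4.20 (0.934 to 38.6), and all 10 intervals include 1. At these counts the interval of TCF7L2 stood above the genome, while its difference from each of the other 4 genes was within counting error.

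Long windows in this genome vary widely in peak number, so each span was also read against all non-overlapping windows of its own length. At TCF7L2, 12 or more peaks were found in 3.47% of 8840 windows of 316 kb, whose median was 1 peak. ASCL2 followed: 3 or more peaks were found in 10.7% of 27515 windows of 103 kb, of which 64.1% held none. For the other genes the windows with at least as many peaks were common, at 25.0% for EPHB2, 27.3% for LGR5 and 35.7% for LEF1. On the gene's own chromosome, 20 of 404 windows (4.95%) held as many peaks as TCF7L2 or more.

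**Figure D2:**
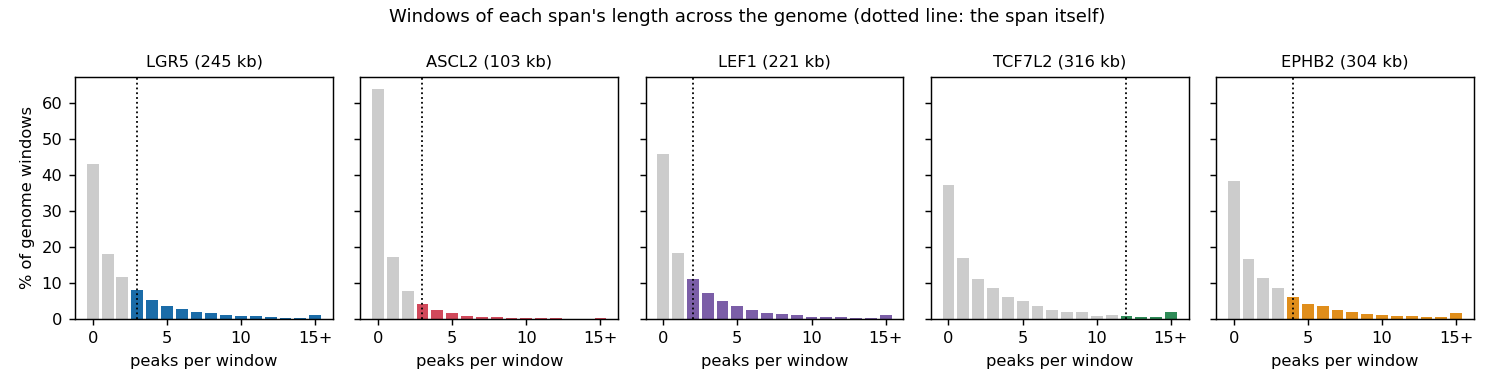
Share of genome windows (y axis, percent) by the number of PROX1 peaks they hold (x axis, 15 and more together), for windows of the length of each span. The dotted line is the count in the span, and coloured bars are windows with that many or more: 27.3% for LGR5, 10.7% for ASCL2, 35.7% for LEF1, 3.47% for TCF7L2 and 25.0% for EPHB2.

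Chromosomes differ in peak density, and the spans were set against their own. TCF7L2 was 4.20 times (2.17 to 7.37) the rest of chromosome 10, which held 0.903 peaks per 100 kb. LEF1 lies on chromosome 4, where the rest of the chromosome held 0.416 peaks per 100 kb, and its ratio was 2.17 there (0.263 to 7.88) against 1.19 (0.144 to 4.30) over the genome. ASCL2 on chromosome 11 had a ratio of 3.73 (0.768 to 10.9), EPHB2 on chromosome 1 one of 1.44 (0.392 to 3.69) and LGR5 on chromosome 12 one of 1.24 (0.256 to 3.64). Only the interval of TCF7L2 excluded 1 among these 5. More peaks and more copies of a region cannot be told apart by position alone. At TCF7L2, 5 of the 12 peaks (41.7%, 15.2 to 72.3) had an input, inferred from tags and fold, that rounds to 2 or more tags, against 24.1% of nuclear peaks, and so did 1 of the 12 peaks at the other 4 genes (8.33%, 0.211 to 38.5). The part of copy number in the density at TCF7L2 was not tested.

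**Figure D3:**
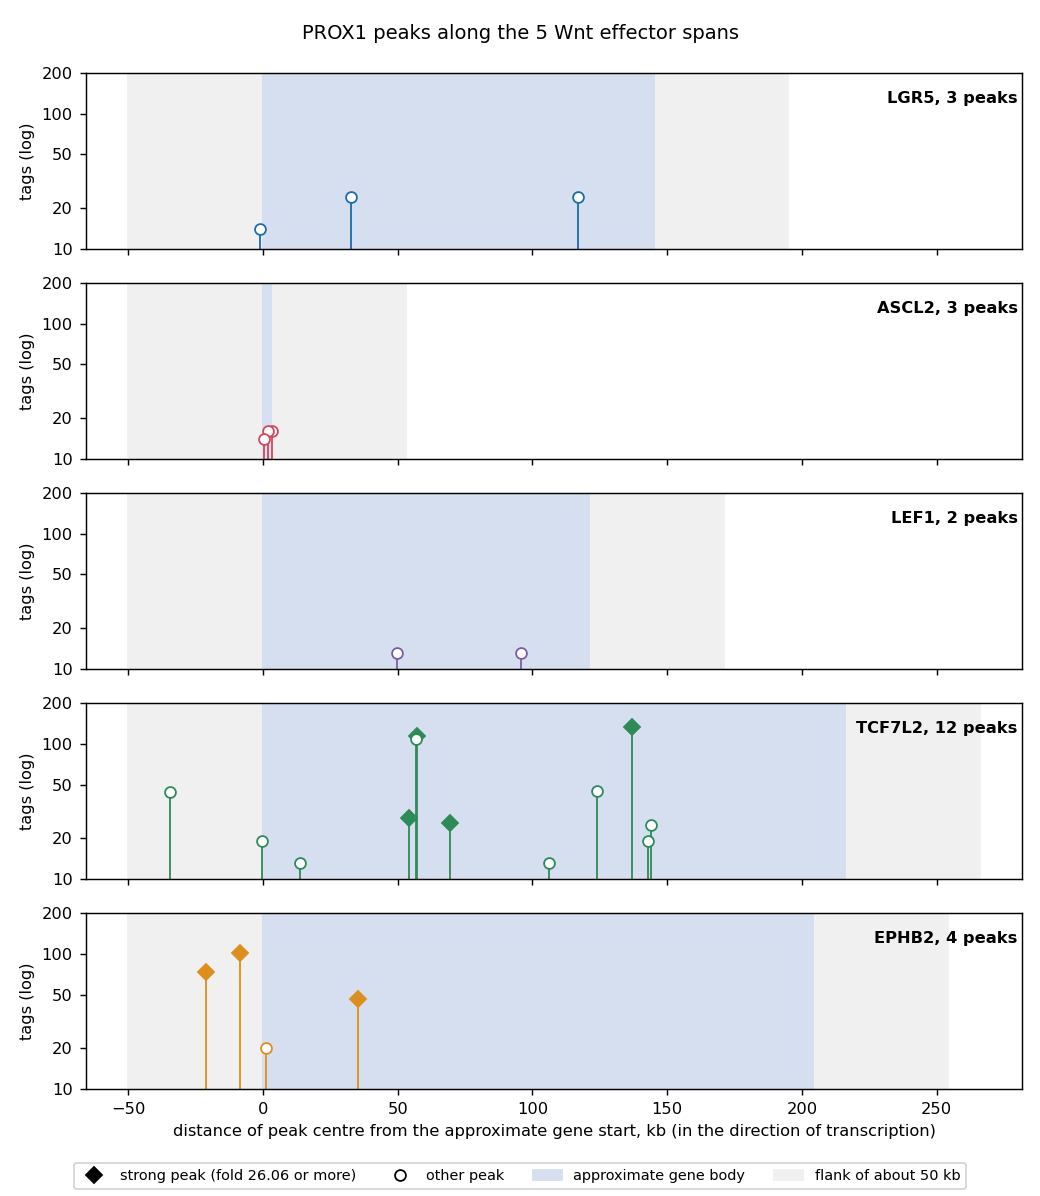
Tags in each PROX1 peak (y axis, log scale) by the distance of its centre from the approximate gene start in kb, in the direction of transcription, for the 5 spans. Filled diamonds are strong peaks (fold of 26.06 or more), open circles other peaks, blue the approximate gene body and grey the flanks. TCF7L2 peaks run from 34.5 kb before the start to 144 kb after it, while the 3 ASCL2 peaks sit together over the gene.

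Positions along each gene are approximate. The gene body was taken as the span less 50 kb at each end, and since the flank is only about 50 kb, a distance of about 1 kb from an end does not tell inside from outside. Of the 24 peaks, 18 lay over the 689 kb of gene bodies (2.61 per 100 kb, 1.55 to 4.13) and 6 in the 500 kb of flanks (1.20 per 100 kb, 0.440 to 2.61). The ratio of these densities was 2.18 (0.828 to 6.70). Of the 6 flank peaks, 5 were before a gene and 1, at ASCL2, after it.

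A PROX1 peak lay within 1.5 kb of the approximate start of 4 of the 5 genes. The nearest peak was 0.169 kb from the start at TCF7L2, 0.499 kb at ASCL2, 0.909 kb at LGR5 and 1.13 kb at EPHB2. At LEF1 it was 49.7 kb away. The starts are known only to about 1 kb, so the order of the short distances and the count of 4 genes are not secure. Windows of 3 kb, the width of 1.5 kb on either side of a point, held a peak in 1.99% of cases across the genome. That background counts all DNA and not gene starts, whose own share was not measured here, and the distance of 1.5 kb was chosen after the values were seen. All 4 of these peaks had fewer tags than the median nuclear peak, with 14 tags at LGR5 and ASCL2, 19 at TCF7L2 and 20 at EPHB2, against 25.

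The 2 genes for DNA-binding partners of β-catenin gave the most and the fewest peaks. TCF7L2, the main TCF of the adult intestinal epithelium, held 589 tags in its peaks, or 1.86 per kb against 0.286 per kb in the rest of the nuclear genome, a ratio of 6.51. As many tags or more were found in 2.73% of windows of that length. Tags are not corrected for input. The 5 TCF7L2 peaks whose inferred input rounds to 2 or more had 44, 109, 114, 45 and 134 tags. The median fold of the 12 peaks was 22.3, against 19.05 for nuclear peaks. Before the gene lay the peak at 114665411 to 114665551 of chromosome 10, with 44 tags. The one nearest to the approximate start, at 114699811 to 114699851 with 19 tags, was too near it to tell its side. The other 10 lay within the gene body, all in its first 144 kb, and the 72.1 kb that followed up to the approximate gene end held none.

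Inside TCF7L2 the tags were concentrated in a few places. A run, meaning peaks whose edges lie within 10 kb of each other, was formed by 3 peaks at 114754151 to 114757451, about 54.2 to 57.3 kb after the start. Their tags were 28, 109 and 114, and their folds over input 28.07, 13.66 and 43.11. The peak with 109 tags thus had a fold close to the lowest of the list, 13.03, with 8 inferred input tags behind it. A second run of 3 peaks, at 114837211 to 114843891, held 134, 19 and 25 tags at folds of 44.78, 19.05 and 25.06. The first of these, 180 bp wide, had the most tags of all 24 members and lay 137 kb after the start. In each run 2 of the peaks were separated by a short gap, 0.380 kb in the first and 0.160 kb in the second, and whether they are separate sites was not tested. With peaks within 10 kb counted once, TCF7L2 still held 8 places, 5.29 times (2.28 to 10.4) the rest of the genome.

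Against other runs of 3 PROX1 peaks, those of TCF7L2 were rich in tags, which are not corrected for input. They summed to 251 and 178 tags, and 94.2% and 83.6% of the 1011 runs of 3 in the nuclear genome had as few or fewer, with a median of 106. Of the 251 tags, 109 were those of the peak with 8 inferred input tags. The highest folds of the TCF7L2 runs, 43.11 and 44.78, were as high as or higher than those of 66.3% and 68.2% of the runs of 3. The 4 single peaks that stood between or before these runs in the gene body had 13 tags at 13.7 kb, 26 tags at 69.6 kb, 13 tags at 106 kb and 45 tags at 124 kb after the start.

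LEF1, the TCF family member that is low in normal colon and raised in many colorectal tumours, held the fewest peaks. Its differences in peak density from the other genes were each within counting error. Its 2 peaks lay at 109213151 to 109213191 and 109259311 to 109259351 of chromosome 4, inside the gene body. Both had 13 tags and a fold of 13.03, the lowest tag count and the lowest fold in the list. At their inferred input of 1 tag the fold is nearly the tag count, so it is no second measure. Of the nuclear peaks 9.57% share the fold of 13.03, and 4 of the 24 members do, 2 at LEF1 and 2 at TCF7L2. LEF1 peaks summed to 26 tags, 0.118 per kb, which is 0.411 times the rest of the genome, and 42.1% of windows of this length held as many or more. No peak lay in either flank. The nearest listed peaks outside lay 176 kb below and 154 kb above the pair in chromosome coordinates.

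Both stem cell genes, LGR5 and ASCL2, had 3 peaks each, of 24 tags or fewer and laid out differently. At LGR5 they were spread over 118 kb of chromosome 12. The first, at 70119071 to 70119111, held 14 tags (fold 14.03). It lay 0.909 kb before the approximate gene start, too near to tell its side. The others, at 70152751 to 70152791 and 70237191 to 70237231, lay in the gene body at 32.8 and 117 kb, each with 24 tags and a fold of 24.06. These 3 peaks summed to 62 tags, 0.883 times the rest of the genome per kb (30.5% of windows held as many or more), although the number of peaks was 1.61 times (0.332 to 4.71) that of the rest.

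At ASCL2 the 3 peaks formed a single run of 2.96 kb, from 2245571 to 2248531 of chromosome 11, that covers most of this short gene. Following transcription, the peaks lay 0.499, 1.91 and 3.41 kb after the approximate start, and the last of them fell just past the approximate gene end. Their tags were 14, 16 and 16 and their folds 14.03, 16.04 and 16.04. The rest of the 103 kb span held no peak. The 46 tags were 1.56 times the rest of the genome per kb, and 18.0% of windows of this length held as many or more. As 1 run the locus counts as 1 place, with a ratio of 2.03 (0.0514 to 11.3) over the genome.

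Few runs of this size held as little signal as that of ASCL2. It summed to 46 tags, and 1.09% of the 1011 runs of 3 had as few or fewer. Its highest fold, 16.04, was matched or undercut by 2.47% of them. Runs of 3 without any strong peak made up 25.8%. Its length was not unusual, since 39.8% of runs of 3 were as short or shorter (median 4.28 kb).

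EPHB2 had 4 peaks, which gave the 3 highest folds of the set. A strong peak had a fold of at least 2 times the lowest in the list, 26.06, and 30.3% of nuclear peaks were strong. At EPHB2 3 of 4 were (75.0%, 19.4 to 99.4), against 4 of 12 at TCF7L2 and none of the 8 at LGR5, ASCL2 and LEF1. Some 21.2 kb before the start, at 22888691 to 22888831 of chromosome 1, 73 tags gave a fold of 73.18, the highest of the 24 and rank 637 of the 23417 nuclear peaks. At 22901551 to 22901691, 8.38 kb before the start, there were 101 tags at a fold of 53.13. About 1.13 kb after the approximate start, too near to tell its side, 22911071 to 22911191 held 20 tags at a fold of 20.05. Inside the gene, 35.3 kb after the start, 46 tags were counted at 22945191 to 22945391, with a fold of 46.11. The peaks with 73, 20 and 46 tags had an inferred input of 1 tag. At that input the fold is nearly the tag count, so it is no second measure beside the tags.

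The EPHB2 peaks lay around the gene's 5′ end, and the 169 kb from the last of them to the approximate gene end held none. The next listed peak lay 258 kb above the last member and the previous one 400 kb below the first. Position alone does not tell which gene the upstream peaks belong to. The 4 peaks summed to 240 tags, 2.76 times the rest of the genome per kb, and 11.7% of windows of this length held as many tags, while 25.0% held as many peaks.

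**Figure D4:**
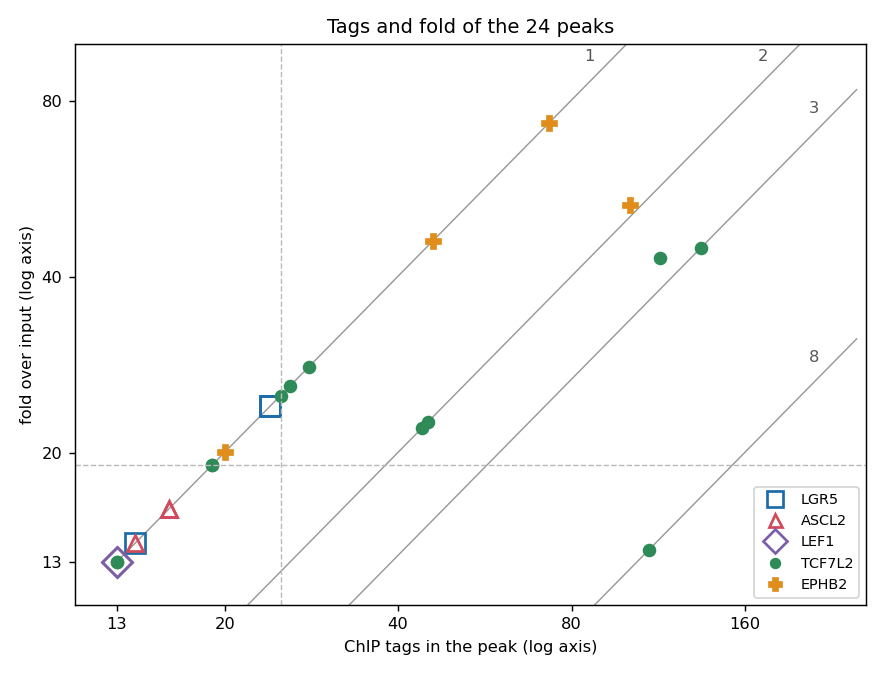
Fold over input (y axis) against ChIP tags (x axis) of the 24 member peaks, both on log axes, 1 symbol per gene; symbols of equal peaks overlap. Grey lines mark 1, 2, 3 and 8 inferred input tags, and dashed lines the medians of nuclear peaks (25 tags, fold 19.05). All LGR5, ASCL2 and LEF1 peaks lie on the line of 1 input tag at 24 tags or fewer, and the peaks at a fold of 43.11 or more belong to EPHB2 and TCF7L2.

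As a set, the 24 peaks had medians close to those of the list. Their median was 24 tags (interquartile range 15.5 to 45.25), against 25 (17 to 44) for nuclear peaks, and their median fold was 21.05 against 19.05. Strong peaks made up 29.2% of members (7 of 24, 12.6 to 51.1), against the 30.3% of nuclear peaks. Runs of 2 or more held 11 of 24 members (45.8%, 25.6 to 67.2), against 56.6% of nuclear peaks. These 4 runs were 2 at TCF7L2, 1 at ASCL2 and 1 at EPHB2. At EPHB2 the peaks 8.38 kb before and 1.13 kb after the approximate start were joined across a gap of 9.38 kb.

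The shares of wide peaks, of peaks with many tags and of peaks at the lowest fold were each higher among members than in the list, and in each case the list's share lay within the members' interval. Peaks 80 bp or wider made up 45.8% of them (11 of 24, 25.6 to 67.2), against 27.9% of nuclear peaks. All 4 EPHB2 peaks and 7 of the 12 at TCF7L2 were that wide, and none of the 8 at LGR5, ASCL2 and LEF1 was. Peaks of 100 tags or more made up 16.7% (4 of 24, 4.74 to 37.4), against 5.50%. They were the 3 at TCF7L2 with 109, 114 and 134 tags and the 1 at EPHB2 with 101. Peaks at the lowest fold also made up 16.7% (4 of 24, 4.74 to 37.4), against 9.57%. An inferred input that rounds to 2 or more was found in 25.0% of members (6 of 24, 9.77 to 46.7), against 24.1%.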

How the data were processed

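SW480R cells were assayed by ChIP-seq with an antibody against PROX1, and the list of peaks against input was used. Per the submitters' processing notes the build was hg18. The sources used here do not give the aligner, peak caller, threshold or full depth. The file has no header, so its columns were read from the values. Column 5, deposited as whole tag counts with 13 as the lowest, is not normalized. The fold deposited by the authors was taken to be the ratio of ChIP to input tags scaled by 1 constant. The deposited p-value, at most 0.00099, falls as the fold rises and was not used. Because only peaks are listed, depth outside them is unknown, and a place without a peak may still be bound. Whether starts count from 0 or 1 is unknown, so coordinates are as listed.

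Peak centres were assigned to the 5 spans. Density ratios carry exact conditional (Clopper-Pearson) 95% intervals, densities exact Poisson and shares exact binomial ones. Tags of 1 peak are not independent molecules and got no interval. Windows were tiled from each chromosome's first base and kept at 95% contig cover or more. Input tags were inferred as tags times 1.0025 over the fold, which is whole within 0.02 for 91.6% of peaks. The 33 mitochondrial peaks were left out. Strand came from the RefSeq promoter table, and for LGR5 and ASCL2 from general knowledge. Chromosome lengths and contigs were those of GenomeInfoDb 1.38.1 and IRanges 2.36.0 (R 4.3.3), with Python 3.11.15, numpy 2.4.6, scipy 1.17.1, pandas 2.3.3 and matplotlib 3.10.9. Ratios and their intervals were tried on simulated counts of independent peaks, which is what the intervals assume. That trial cannot tell how the intervals perform where peaks cluster. Run joining was tried on planted runs. Every peak was to be named in spans of up to 6 peaks; at TCF7L2, the 3 with the highest fold, the 3 with the most tags, those nearest to the gene ends and the longest run, and its others were given as well. The genes, spans and measures were chosen with earlier results of these data known. Genes of the pathway beyond these 5 were not analysed here, as the files hold no gene names.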

Additional observations from a re-analysis of the deposited data

How the results depend on the processing

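With 2 to 12 peaks a gene, counting error limits every density, and 1 library of each kind gives no replicate spread. No paired analysis was possible because there is 1 library of each kind. Of 92 alternatives to a reported value, 76 left it within its 95% interval (for counts and tag ratios within 1.5 times, for medians within the interquartile range) and did not change whether the interval of a ratio includes 1. The pooled density ratio of 2.66 fell to 1.81 without TCF7L2, an alternative added after the data were seen, and its interval then included 1. The TCF7L2 ratio stayed between 4.11 and 6.09 under all 9 alternatives, each with an interval above 1. These intervals too cover counting error only, and 3.47% of genome windows of this length held as many peaks or more. With strong peaks only, the ratio was 0 at LGR5, ASCL2 and LEF1, and with the better-ranked peaks it was 0 at ASCL2 and LEF1. By construction, a gene without such peaks gives 0. Over the approximate gene body alone the ASCL2 ratio was 87.7 (10.6 to 317), because 2 peaks then stand in 3 kb. With the span widened by 50 kb at each end it was 3.89 (1.43 to 8.47), as 3 more peaks enter. Both ASCL2 intervals take peaks as independent, although the 3 member peaks form 1 run and the 3 added ones also lie close together. Neither ratio was taken with runs counted once, so neither interval sets ASCL2 above the genome. Joining peaks within 1 kb left 2 runs in all, 0 of them at ASCL2 and EPHB2, and joining within 5 kb left 0 at EPHB2. Without its peak with the most tags, the ratio of tags per kb became 0.541 at LGR5, 1.02 at ASCL2, 0.205 at LEF1 and 1.60 at EPHB2, and it was 5.03 at TCF7L2.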

Other observations

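The 50 kb on either side of each span held 5 further peaks. Near ASCL2 there were 3, all on the low-coordinate side, beyond the gene's 3′ end: 2191351 to 2191391 of chromosome 11 with 21 tags, 4.63 kb outside the span, 2182711 to 2182751 with 52 tags and 2181231 to 2181291 with 14 tags. All 3 had a fold of 14.03 or more, up to 21.05, so none was strong. TCF7L2 had 1 such peak, with 19 tags at 49.9 kb outside the span on the side of the gene start, and EPHB2 had 1 with 13 tags at 39.2 kb on the side of the gene end. LGR5 and LEF1 had 0.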
